A study of Homo sapiens with 4 samples.

Results

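Amino acid transporter genes of the solute carrier families SLC1, SLC3, SLC6, SLC7, SLC36, SLC38 and SLC43 were examined in Daoy cells, an established human medulloblastoma line, after knockdown of PELP1. The members were all gene rows whose symbol belongs to 1 of these 7 families, 59 of 23228 gene rows. RNA was sequenced from cells stably carrying a control shRNA (n = 2 libraries) and from cells stably carrying an shRNA against PELP1 (n = 2 libraries). Both shRNAs were delivered by lentivirus, and both kinds of cell were grown in DMEM with serum. PELP1 is a scaffold protein that works as a coregulator of nuclear receptors and takes part in ribosome maturation. The labels do not say how many shRNA sequences were used, whether the cells were cloned or whether duplicates were separate cultures, so p-values cover just the spread seen between these libraries, and that spread may be technical.

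Amino acids cross membranes only through carriers, and each family of carriers has its own way of driving them. SLC1 and SLC38 proteins use the sodium gradient, SLC36 proteins use protons, and many SLC6 proteins use sodium and chloride. Most SLC7 light chains are exchangers that reach the cell surface only when bound to a heavy chain of the SLC3 family, so that SLC3A2 (4F2hc or CD98) is a partner of several transporters at once. Tumour cells are known to depend on a few of these carriers for glutamine, leucine and cystine. Lysosomal members of SLC36 and SLC38 take part in the signalling of amino acid supply to the kinase mTORC1. The family name is wider than its label here, since part of SLC6 carries monoamines, GABA, taurine, creatine or betaine, and SLC43A3 carries purine nucleobases.

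The libraries held 24052542 to 29221640 counts in genes, and the share of these in members was 0.333% and 0.337% with the control shRNA and 0.317% and 0.318% with the PELP1 shRNA. PELP1 itself stood at 168 and 185 CPM with the control shRNA and at 55.6 and 49.7 CPM with the PELP1 shRNA (log2 fold change −1.75 ± 0.05, SE, FDR = 1.54e-33). CPM values are TMM-scaled counts per library size, a positive log2 fold change means a higher level with the PELP1 shRNA, and FDR is the adjusted p of the edgeR quasi-likelihood test over all 14972 genes tested. Of 14 genes fixed as markers of medulloblastoma and the cerebellar granule lineage, 5 were under 1 CPM, among them ATOH1, BARHL1 and NEUROD1. SFRP1 had the highest mean of the 14 (146 CPM). The list summed to 322 to 329 CPM in the controls and to 290 to 299 CPM with the PELP1 shRNA. At an FDR under 0.05, 6 of its genes were higher with the PELP1 shRNA. GLI2, PTCH1 and HHIP were lower, HHIP at 16.4% of control. The mesenchymal list (6 genes) summed to 17450 to 18060 CPM in every library, but with FN1 and COL1A1 higher and VIM, THY1, PDGFRB and COL1A2 lower with the PELP1 shRNA, COL1A2 to 8.83% of control. The epithelial list had 5 of 6 genes higher with the PELP1 shRNA and CDH1 near 0, and summed to 569 to 584 CPM in the controls and 835 to 858 CPM with the PELP1 shRNA, and its part in the results was not tested. In such RNA from whole cultures, fewer cells of a type and less RNA per cell cannot be told apart.

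The changes in the transporter genes went both ways and were mostly small. A mean of at least 5 CPM was reached by 26 members. Of these, 10 rose (38.5%), 9 fell (34.6%) and 7 did not pass the FDR threshold of 0.05. Among all 11325 genes of that level, 29.5% rose and 34.1% fell, so the members' shares lay near the background. The median log2 fold change of the 26 was 0.03, against −0.02 for all genes of that level, and their median absolute log2 fold change was 0.28 against 0.22. The 2 groups of libraries did not overlap in 25 of the 26, against 80.8% of all such genes. Tested against a 1.5-fold change, 2 of the 26 passed (SLC6A17 higher and SLC7A11 lower), against 7.68% of all such genes.

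**Figure D1:**
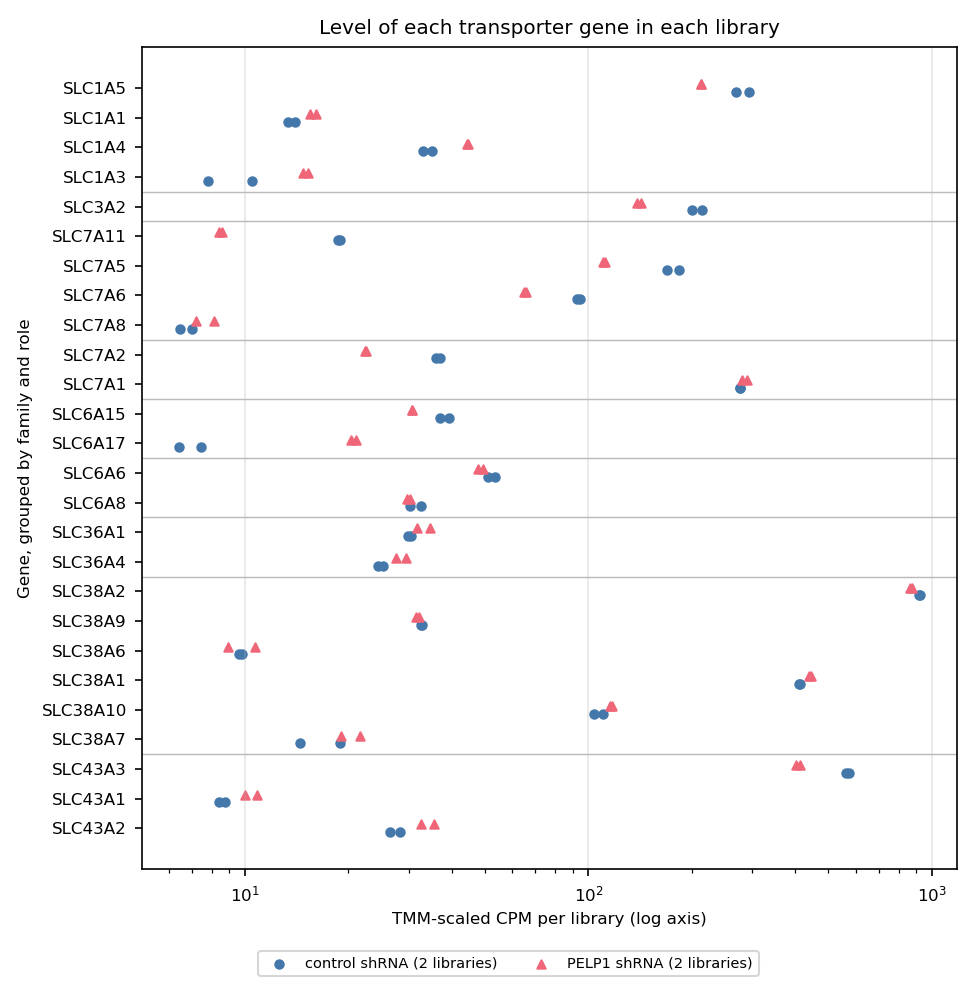
TMM-scaled CPM (log axis) of the 26 transporter genes with a mean of at least 5 CPM, 1 point per library, grouped by family and role. The 2 control shRNA libraries (circles) and the 2 PELP1 shRNA libraries (triangles) overlap in 1 gene, SLC38A6, and lie farthest apart in SLC6A17 and SLC7A11.

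The heavy chain and its main light chains were lower together. SLC3A2, the heavy chain, lies on chromosome 11 (hg19, plus strand, 62623476 to 62656352). It stood at 200.5 and 214 CPM in the control libraries and at 142 and 138 CPM in the PELP1 shRNA libraries. Both PELP1 shRNA libraries were below both controls, and the log2 fold change was −0.56 ± 0.04 (SE, FDR = 1.03e-18). SLC7A5 (LAT1), the exchanger of leucine and other large neutral amino acids, lies on chromosome 16 (hg19, minus strand, 87863629 to 87903113). Its level was 169 and 184 CPM with the control shRNA and 112 and 110.4 CPM with the PELP1 shRNA. It fell by 0.67 ± 0.04 (SE, FDR = 6.19e-21) on the log2 scale, with no overlap between the groups. SLC7A6 (y+LAT2), which exchanges arginine for neutral amino acids, was at 94.7 and 92.8 CPM in the controls and at 65.8 and 65.02 CPM with the PELP1 shRNA (log2 fold change −0.52 ± 0.05, SE, FDR = 4.41e-14). SLC7A6 overlaps SLC7A6OS and another gene on the opposite strand over 4217 exonic bases, and whether counting used strand is not given in the sources used here. The count of SLC7A5 is partial, since SLC7A5P1 and SLC7A5P2 are near-identical copies and reads with several places of alignment were not counted.

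SLC7A11 (xCT), the light chain that takes up cystine in exchange for glutamate and so feeds glutathione synthesis, had the strongest fall among the 26. It lies on chromosome 4 (hg19, minus strand, 139085251 to 139163503). Control libraries had 18.9 and 18.6 CPM and PELP1 shRNA libraries 8.55 and 8.38 CPM, so that the level was 45.2% of control (log2 fold change −1.15 ± 0.10, SE, FDR = 6.61e-16). Of its exonic bases, 865 overlap the antisense gene SLC7A11-AS1. SLC7A8 (LAT2), a second exchanger of neutral amino acids, was not called. It stood at 6.46 and 6.996 CPM in the controls and at 7.19 and 8.13 CPM with the PELP1 shRNA (log2 fold change 0.18 ± 0.13, SE, FDR = 0.213). The other light chains were near the limit of detection. SLC7A7 (y+LAT1) had 45 counts summed over the controls and 44 summed over the PELP1 shRNA libraries (FDR = 0.529). SLC7A10 (Asc-1) had 16 and 37 (FDR = 0.0704), and was called higher by library size alone (adjusted p = 0.0421) and without PELP1 shRNA replicate 2 (0.0342). SLC7A10 met the count filter only through the PELP1 shRNA libraries, so its direction was fixed by the filter. SLC7A9 had 5 and 4 counts and its heavy chain partner SLC3A1 had 4 and 2, too few to test, and SLC7A13 had none.

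Levels can be compared between genes only per length, here as CPM per kilobase of the exons of the canonical GENCODE transcript. On that scale SLC3A2 fell from a mean of 110.1 to 74.5, SLC7A5 from 38.7 to 24.4 and SLC7A6 from 14.99 to 10.5. The 6 light chains known to pair with SLC3A2 summed to 0.530 and 0.521 of the heavy chain level in the control libraries and to 0.509 and 0.518 in the PELP1 shRNA libraries. The log2 ratio of light to heavy chain thus differed by −0.0338 between the groups, with an SD between replicates of 0.0177, and 2 libraries against 2 allow no exact two-sided permutation p below 0.333. The ratio was lower in both PELP1 shRNA libraries, by far less than SLC3A2 itself fell. The ratio itself depends on the length used, since with the exons of all transcripts it lay at 1.63 and 1.61 in the controls and at 1.56 and 1.58 with the PELP1 shRNA, while its difference between the groups stayed small (−0.05). Among the light chains, SLC7A5 made up 65.8% and 68.0% of the sum in the controls and 64.0% and 63.7% with the PELP1 shRNA. Since the count of SLC7A5 is partial, the ratios and its share may be too low in all libraries. The share of SLC7A11 went from 3.47% and 3.26% to 2.31% and 2.29%, and that of SLC7A8 from 2.71% and 2.79% to 4.42% and 5.05%.

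**Figure D2:**
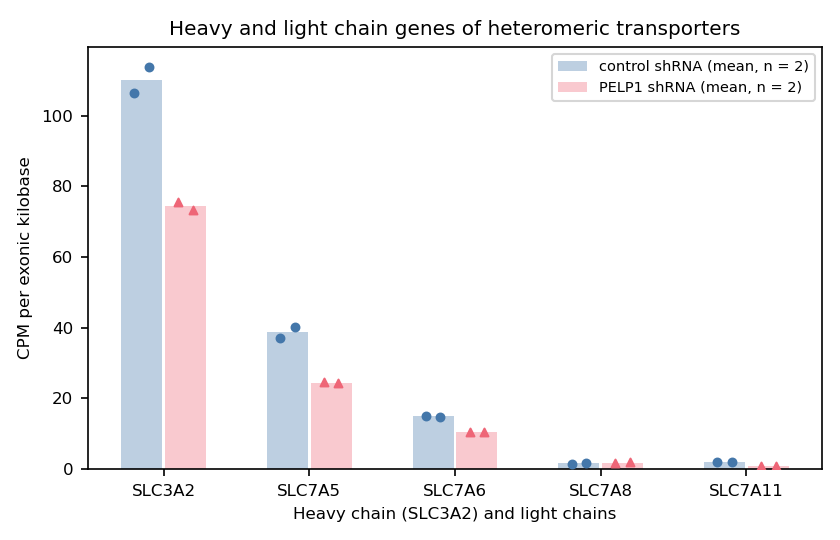
CPM per kilobase of canonical exons for the heavy chain SLC3A2 and 4 of its light chains in each library (points) with the group mean (bars, n = 2 each). SLC3A2, SLC7A5, SLC7A6 and SLC7A11 are lower in both PELP1 shRNA libraries, SLC3A2 going from a mean of 110.1 to 74.5, and SLC7A8 is not.

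The SLC1 family split by member. SLC1A5 (ASCT2), the main sodium-dependent glutamine carrier of many tumour lines, lies on chromosome 19 (hg19, minus strand, 47278140 to 47291851). It stood at 269.5 and 294 CPM with the control shRNA and at 212 CPM in both PELP1 shRNA libraries. It fell by 0.41 ± 0.04 (SE, FDR = 4.99e-14) on the log2 scale, and 794 of its exonic bases overlap genes on the opposite strand. SLC1A4 (ASCT1), its paralog for alanine, serine and cysteine, moved the other way. It had 32.9 and 34.98 CPM in the controls and 44.2 and 44.7 CPM with the PELP1 shRNA, a rise of 0.39 ± 0.06 (SE, FDR = 4.39e-07). SLC1A3 (EAAT1 or GLAST), a glutamate carrier best known from astrocytes, rose from 10.5 and 7.81 CPM to 15.2 and 14.8 CPM (log2 fold change 0.72 ± 0.11, SE, FDR = 5.18e-08). The 6 fixed astrocyte and glial markers summed to 17.96 to 45.2 CPM in the controls and to 19.1 to 42.2 CPM with the PELP1 shRNA. Most of that spread was GFAP, higher in replicate 1 of both groups (37.2 and 11.8 CPM in the controls, 27.8 and 10.4 CPM with the PELP1 shRNA). Of the 6, 2 were higher with the PELP1 shRNA (MBP and ALDH1L1) and SOX10 was near 0. GFAP (−0.32), AQP4 (−0.46) and S100B (−0.78) had negative log2 fold changes and were not called. The part of these markers in the SLC1A3 result was not tested. SLC1A1 (EAAT3), a carrier of glutamate and cysteine, stood at 13.9 and 13.3 CPM in the controls and at 15.5 and 16.1 CPM with the PELP1 shRNA (0.21 ± 0.09, SE, FDR = 0.0453). That call was lost without any 1 of the 4 libraries (adjusted p from 0.0684 to 0.201) and with DESeq2 (adjusted p = 0.245).

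Promoters are shown for a pair of heteromeric partners that fell, SLC3A2 and SLC7A5, and for the paralogs SLC1A5 and SLC1A4, which moved in opposite directions. The windows are RefSeq promoters (GRCh38.p14) that span a transcript start and are read along the gene's strand. Matches to TGATGNAA, the core of the amino acid response element bound by ATF4, and to TGACNNNGC, the core of the antioxidant response element bound by NRF2, were searched on both strands and stand in capitals. A match is a description of the letters and not a shown binding site. The SLC3A2 window, 1 of 3 starts listed, is chr11:62881449-62881748 on the plus strand. It holds both motifs, the first reading as TTACATCA since it lies on the opposite strand. The only SLC7A5 window is chr16:87869458-87869757 on the minus strand, with 1 antioxidant core and no amino acid response core. The SLC1A5 window, 1 of 3 starts, is chr19:46784765-46785064 on the minus strand, and the SLC1A4 window, 1 of 2 starts, is chr2:64989149-64989448 on the plus strand. Each of these holds 1 amino acid response core. Where several starts were listed, the window with the most matches was shown, with TGATGNAA weighted above TGACNNNGC. The matches in those windows thus follow in part from the choice. Another SLC1A5 window, chr19:46787244-46787543, holds 1 antioxidant core and no amino acid response core. The remaining windows of SLC1A5, SLC3A2 and SLC1A4 hold neither motif. Which start is used in these cells was not tested.
SLC3A2: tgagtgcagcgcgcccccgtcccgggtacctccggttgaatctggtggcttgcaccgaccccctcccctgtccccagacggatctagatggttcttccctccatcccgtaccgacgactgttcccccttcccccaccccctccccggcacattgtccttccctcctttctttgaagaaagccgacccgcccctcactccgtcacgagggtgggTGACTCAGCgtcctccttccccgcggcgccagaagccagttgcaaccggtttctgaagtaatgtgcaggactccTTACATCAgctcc
SLC7A5: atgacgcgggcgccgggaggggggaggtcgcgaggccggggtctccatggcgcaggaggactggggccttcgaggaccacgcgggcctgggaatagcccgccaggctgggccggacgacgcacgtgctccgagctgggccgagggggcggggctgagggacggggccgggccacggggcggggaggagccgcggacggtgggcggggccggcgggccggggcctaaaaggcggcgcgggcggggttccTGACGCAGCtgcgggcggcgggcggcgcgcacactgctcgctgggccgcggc
SLC1A5: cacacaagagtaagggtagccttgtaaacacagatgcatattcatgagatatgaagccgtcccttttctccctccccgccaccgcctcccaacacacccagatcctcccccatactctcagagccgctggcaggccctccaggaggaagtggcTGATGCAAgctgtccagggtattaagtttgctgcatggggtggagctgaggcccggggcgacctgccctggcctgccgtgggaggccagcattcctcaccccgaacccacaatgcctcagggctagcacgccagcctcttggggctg
SLC1A4: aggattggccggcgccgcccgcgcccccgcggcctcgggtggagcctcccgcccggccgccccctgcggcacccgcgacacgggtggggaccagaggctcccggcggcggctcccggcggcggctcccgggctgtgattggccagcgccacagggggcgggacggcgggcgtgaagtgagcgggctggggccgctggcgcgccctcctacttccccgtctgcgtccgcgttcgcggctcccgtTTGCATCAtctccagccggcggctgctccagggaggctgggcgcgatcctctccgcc

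Windows on chromosome 8, where SLC7A2 and SLC7A13 lie, were left out of all counts given here. The remaining promoters covered 44 of the 59 members, with 66 windows, and 21 of the 26 with a mean of at least 5 CPM. SLC7A11, SLC7A2, SLC43A3, SLC6A15 and SLC6A6 had no window among these. Their promoters were not searched, so their absence from the matches below is no result. TGATGNAA was found in 6 of the 66 windows (9.09%), against 3.62% of all 35116 windows. These 6 belonged to SLC1A3, SLC1A4, SLC38A1, SLC1A5, SLC3A2 and SLC7A1, of which the first 3 rose, the next 2 fell and SLC7A1 did not pass the threshold. TGACNNNGC was found in 7 windows (10.6%), against 13.3% of all. They belonged to SLC3A2, SLC7A5, SLC7A6 and SLC1A5, which fell, to SLC1A3, which rose, and to SLC7A1 and SLC7A7, which did not pass. The 2 motifs did not overlap in the 4 windows shown.

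Cationic amino acids enter through SLC7 members that need no heavy chain, and these did not move as a group. SLC7A1 (CAT1), the widespread carrier of arginine and lysine, was at 277 and 276 CPM in the controls and at 289.7 and 280.2 CPM with the PELP1 shRNA. Its log2 fold change was 0.04 ± 0.04 (SE, FDR = 0.304), and under upper-quartile scaling (adjusted p = 0.0199) or library size alone (0.00107) it passed as higher. SLC7A2 (CAT2), an arginine carrier linked to nitric oxide synthesis, fell from 37.1 and 36.1 CPM to 22.4 and 22.6 CPM (log2 fold change −0.70 ± 0.07, SE, FDR = 4.19e-13). SLC7A14, an orphan of the lysosome, was low in all libraries, with 2.74 and 1.52 CPM in the controls and 3.02 and 3.41 CPM with the PELP1 shRNA (0.61 ± 0.21, SE, FDR = 0.0115). Without control replicate 1 the log2 fold change was 1.08, and without control replicate 2 it was 0.23 and not called (adjusted p = 0.451). The call ended also without PELP1 shRNA replicate 2 (0.092) and with DESeq2 (0.185). SLC7A3 had 30 and 56 counts over both libraries of a group and did not pass (FDR = 0.112). It was called higher without PELP1 shRNA replicate 1 (adjusted p = 0.0436).

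The sodium-coupled SLC38 carriers, which take up glutamine and other small neutral amino acids, changed little where they were abundant. SLC38A2 (SNAT2), a carrier known to be induced by amino acid shortage, had the highest count of the 59 members. It stood at 923 and 918 CPM with the control shRNA and at 864 and 877 CPM with the PELP1 shRNA. Its log2 fold change was −0.08 ± 0.03 (SE, FDR = 0.0346), a call that ended with library size alone (0.0093, adjusted p = 0.827) and with upper-quartile factors (adjusted p = 0.496). The call ended also with either other low-count filter (adjusted p = 0.0712 and 0.0858) and without any 1 of the 4 libraries (0.0731 to 0.203). SLC38A1 (SNAT1) was at 412 and 409 CPM in the controls and 439.7 and 445 CPM with the PELP1 shRNA, a difference of 0.11 ± 0.04 (SE, FDR = 0.00711) that was not called once PELP1 shRNA replicate 2 was left out (adjusted p = 0.0778). Both lie near each other on chromosome 12 (hg19, minus strand, 46751971 to 46766556 for SLC38A2 and 46576846 to 46663800 for SLC38A1). SLC38A4 (SNAT4), best known from liver and placenta, lies nearby on the same strand (47158544 to 47226191) and fell far more. It went from 5.13 and 4.97 CPM to 1.52 CPM in both PELP1 shRNA libraries, to 30.2% of control (log2 fold change −1.73 ± 0.19, SE, FDR = 6.21e-12). It had 248 counts in the control libraries and 88 in the PELP1 shRNA libraries.

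Lysosomal and related carriers changed by little. SLC38A9, the lysosomal carrier that reports arginine to mTORC1, was at 32.6 and 32.7 CPM in the controls and 31.5 and 32.2 CPM with the PELP1 shRNA (−0.04 ± 0.07, SE, FDR = 0.674), and its sign turned with library size alone (0.0541) and upper-quartile factors (0.0171). SLC38A7, which releases glutamine from lysosomes, was at 14.4 and 18.9 CPM in the controls and 19.1 and 21.6 CPM with the PELP1 shRNA (0.28 ± 0.10, SE, FDR = 0.0113). Without control replicate 1 the difference was 0.10 (adjusted p = 0.412) and without control replicate 2 it was 0.50. The call ended also without PELP1 shRNA replicate 2 (0.169) and in DESeq2 (0.113). SLC36A1 (PAT1), a proton-coupled carrier of the lysosome, was at 30.4 and 29.9 CPM against 31.6 and 34.7 CPM (0.14 ± 0.07, SE, FDR = 0.0907). It was called higher with library size alone (adjusted p = 0.00381), with upper-quartile factors (0.0171) and without PELP1 shRNA replicate 1 (0.0456). Without PELP1 shRNA replicate 2 its log2 fold change was 0.07 (adjusted p = 0.547). Its relative SLC36A4 (PAT4) was at 24.4 and 25.3 CPM against 29.4 and 27.5 CPM (0.20 ± 0.07, SE, FDR = 0.02), and missed the threshold in DESeq2 (adjusted p = 0.144), without control replicate 1 (0.0999) and without PELP1 shRNA replicate 1 (0.191). SLC38A10, at 104 and 110.3 CPM against 117 and 116 CPM, differed by 0.12 ± 0.05 (SE, FDR = 0.0203), and was not called with DESeq2 (adjusted p = 0.0943), without control replicate 1 (a difference of 0.08, adjusted p = 0.24), PELP1 shRNA replicate 1 (0.122) or PELP1 shRNA replicate 2 (0.0713). SLC38A6 was at 9.63 and 9.83 CPM against 8.95 and 10.7 CPM, and its groups overlapped (FDR = 0.947).

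The SLC43 family was again divided. SLC43A3, the purine nucleobase carrier, had the second highest count of the members in the control libraries and the third, after SLC38A1, with the PELP1 shRNA, and it lies on chromosome 11 (hg19, minus strand, 57174427 to 57195053). It fell from 561 and 574 CPM to 402 and 414 CPM (log2 fold change −0.48 ± 0.04, SE, FDR = 8.93e-19). Another annotated gene overlaps 1349 of its exonic bases in the same orientation. The facilitative carriers of large neutral amino acids, SLC43A1 (LAT3) and SLC43A2 (LAT4), were higher at lower levels. SLC43A2 had 26.5 and 28.4 CPM in the controls and 35.5 and 32.5 CPM with the PELP1 shRNA (0.31 ± 0.07, SE, FDR = 0.000177). SLC43A1 had 8.39 and 8.74 CPM against 10.8 and 9.98 CPM (0.28 ± 0.11, SE, FDR = 0.0261), a call lost with DESeq2 (adjusted p = 0.213) and without control replicate 1, control replicate 2 or PELP1 shRNA replicate 1 (0.0583 to 0.173).

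In the SLC6 family, SLC6A17 had the strongest rise among the 26. It encodes NTT4, a carrier of neutral amino acids in synaptic vesicles, and lies on chromosome 1 (hg19, plus strand, 110693116 to 110744824). Control libraries had 7.44 and 6.41 CPM and PELP1 shRNA libraries 20.4 and 21.1 CPM, a 3-fold rise with well separated groups (log2 fold change 1.59 ± 0.10, SE, FDR = 2.97e-21). Of its exonic bases, 489 overlap the antisense gene SLC6A17-AS1. The 6 fixed neuronal markers summed to 158 to 175 CPM in the controls and to 97.3 and 97.8 CPM with the PELP1 shRNA, with SYP and SNAP25 higher, TUBB3 and STMN2 lower and RBFOX3 near 0, and their part in this result was not tested. SLC6A15 (B0AT2), a neuronal carrier of branched-chain amino acids and proline, fell from 39.4 and 36.999 CPM to 30.7 and 30.6 CPM (−0.32 ± 0.07, SE, FDR = 4.95e-05). SLC6A9 (GlyT1), a glycine carrier, fell from 4.32 and 4.78 CPM to 2.68 and 2.10 CPM (−0.92 ± 0.18, SE, FDR = 1.12e-05). Of its exonic bases, 413 overlap a gene on the opposite strand.

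The SLC6 carriers of other substrates that were abundant did not pass the threshold. The taurine carrier SLC6A6 was at 50.9 and 53.6 CPM in the controls and 49.3 and 47.7 CPM with the PELP1 shRNA (FDR = 0.108). The creatine carrier SLC6A8 was at 30.3 and 32.5 CPM against 29.6 and 30.3 CPM (FDR = 0.407), and its count is partial for the same reason as that of SLC7A5, with SLC6A10P as the copy. SLC6A11 (GAT3), a GABA carrier, rose from 1.28 and 1.55 CPM to 2.85 and 2.87 CPM (1.00 ± 0.23, SE, FDR = 0.000114). The betaine and GABA carrier SLC6A12 had 12 counts in the control libraries and 39 in the PELP1 shRNA libraries (ratio 2.76, 95% counting interval 1.42 to 5.80, FDR = 0.00812). It met the count filter only through the PELP1 shRNA libraries, so its direction was fixed by the filter. It was not called with DESeq2 (adjusted p = 0.161), without control replicate 2 (0.0774) or without PELP1 shRNA replicate 1 (0.141).

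**Figure D3:**
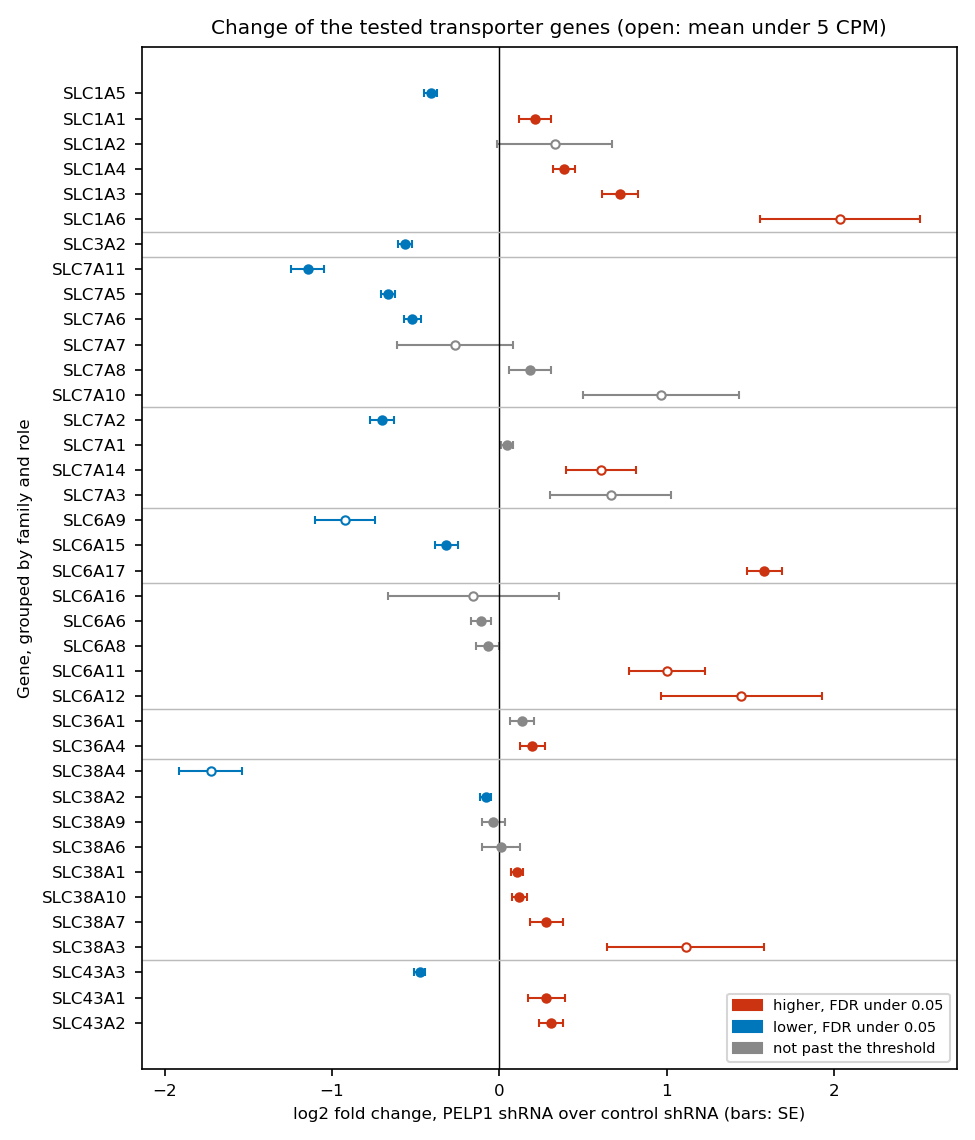
Log2 fold change (PELP1 shRNA over control shRNA) with SE of the 38 transporter genes tested, grouped by family and role and coloured by the edgeR call, with open points for genes whose mean was under 5 CPM. Calls lie on both sides of 0 in SLC1, SLC38 and SLC43, and the points farthest from 0 below and above are SLC38A4 (−1.73) and SLC1A6 (2.04).

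Beyond the 26, 12 members of lower level were tested, and 21 had too few counts. With all 38 tested, 15 rose and 11 fell, against 28.6% and 29.5% of all genes tested (58.1% in either direction). Without control replicate 1, 9 rose and 10 fell. The 2 groups did not overlap in 34 of the 38, against 77.7% of all genes tested, and 4 passed the test against 1.5-fold, against 9.63%. Of the 12 low members, 5 rose and 2 fell, where 25.7% and 15.4% of all genes tested under 5 CPM did. SLC1A6, SLC38A3, SLC6A12 and SLC7A10 met the filter only through the PELP1 shRNA libraries, so their direction was fixed by the filter. The count of low members that rose is no support for a direction. The 15 that rose among the 38 include SLC1A6, SLC38A3 and SLC6A12, so that count is no support either. The glutamate carrier SLC1A6 (EAAT4), known from Purkinje cells, had 4 and 6 counts in the controls and 21 and 28 with the PELP1 shRNA (ratio 4.17, 95% counting interval 2.09 to 9.23, FDR = 0.000208). SLC38A3 had 14 counts against 36 (FDR = 0.038), a call lost without any 1 of the 4 libraries (adjusted p from 0.0602 to 0.266), with DESeq2 (0.299) and with no low-count filter (0.0564). SLC1A2 (41 counts against 61, FDR = 0.423) and SLC6A16 (19 against 20, FDR = 0.814) did not pass.

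Among the 21 members not tested, 8 had no count in any library, which allows up to 3 counts or 0.103 to 0.125 CPM in each. They were SLC6A5, SLC6A14, SLC6A18, SLC6A19, SLC7A4, SLC7A13, SLC36A2 and SLC36A3, several of them known from kidney and gut. The other 13 had from 1 to 34 counts in the 4 libraries together. SLC38A5 (SNAT5) had 24 counts in the control libraries and 10 in the PELP1 shRNA libraries (ratio 0.354, 95% counting interval 0.151 to 0.769). The noradrenaline carrier SLC6A2 had 1 count against 14 (ratio 11.9, interval 1.81 to 503). SLC1A7 and SLC6A13 each had 0 counts against 10, a ratio of 2.83 when set against 3 counts over the control group. Their 95% counting interval ran from 1.91 upwards. These intervals cover counting error only, since counts were pooled over the libraries of a group and the spread between libraries was left out. The reads also carry no molecular identifiers, so reads copied from 1 molecule could not be told apart.

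By level per kilobase of canonical exons, a few genes made up most of the transporter transcripts. The 5 highest were SLC38A2, SLC43A3, SLC3A2, SLC1A5 and SLC38A1, which held 76.4% of the summed level of all 59 with the control shRNA (both libraries) and 73.4% and 73.6% with the PELP1 shRNA. With the exons of all transcripts as the length, SLC3A2 was the seventh and the other 4 were the highest. SLC43A3 was above SLC38A2 in the controls (mean 217 against 192 CPM per kilobase) and below it with the PELP1 shRNA (156 against 182), with no overlap between the genes in either group. With the exons of all transcripts SLC38A2 was above SLC43A3 over the 4 libraries (mean 138 against 108). SLC7A1 (37.7 and 37.5) and SLC7A5 (37.1 and 40.3) could not be told apart in the controls. With the PELP1 shRNA SLC7A1 was above SLC7A5 (39.4 and 38.2 against 24.6 and 24.2). The count of SLC7A5 is partial, so its place against SLC7A1 may be too low in both groups. The summed level of all members was 861 and 886 CPM per kilobase in the controls and 732 and 738 with the PELP1 shRNA. That of the SLC38 family was 290.8 and 291.8 against 284 and 289, and that of the cationic SLC7 carriers 43.2 and 42.6 against 43.01 and 42.01. The SLC43 sum went from 221 and 226 to 162 and 166 and the SLC1 sum from 107 and 116 to 91.9 and 92.1.

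Genes that respond to amino acid supply were described by lists chosen for this pathway. ATF4 is the transcription factor translated when amino acids run short, and several transporter genes are known targets of it. Of 23 tested members of the ATF4 list, 2 rose (8.7%, against 28.6% of all genes tested) and 12 fell (52.2%, against 29.5%), while 9 did not pass. All of the 23 but CHAC1 averaged at least 5 CPM, a level at which 29.5% of all genes rose and 34.1% fell. Most tested genes of the lists that follow were of that level too. The median log2 fold change of the ATF4 list was −0.20 against 0.0022 for all genes tested. With library size alone 3 rose and 9 fell, and without control replicate 1 or PELP1 shRNA replicate 2 the genes that rose numbered 1. ATF4 itself was at 170.1 and 182 CPM in the controls and 151 and 152 CPM with the PELP1 shRNA (−0.22 ± 0.04, SE, FDR = 8.22e-06). STC2, a secreted glycoprotein, fell from 432 and 442 CPM to 271 and 280.1 CPM (−0.66 ± 0.04, SE), and EIF4EBP1, a repressor of translation that mTORC1 inactivates, fell by 0.50 ± 0.05 (SE). ASNS, the asparagine synthetase, fell by 0.39 ± 0.07 (SE), whereas XPOT, the tRNA exporter, rose by 0.40 ± 0.04 (SE). CHAC1 and DDIT3, a pair of classical targets, were among the 9 that did not pass (FDR = 0.408 and FDR = 0.513). TRIB3 and SESN2 were among the 12 that fell (FDR = 0.0219 and FDR = 0.014). SLC7A11, SLC7A5, SLC3A2 and SLC1A5, which fell, SLC1A4, which rose, and SLC7A1, which did not pass, are known targets as well, so that known targets among the transporters had values on both sides of 0.

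Among 35 tested sensors and regulators of mTORC1, 5 were higher (14.3%, against 28.6% of all genes tested) and 10 lower (28.6%, against 29.5%), and 20 did not pass (median −0.06). The share of lower genes thus lay near the background, and with library size alone 9 rose and 6 fell. The rises numbered 3 without PELP1 shRNA replicate 1 and the falls 6 without PELP1 shRNA replicate 2. RRAGD, a Rag GTPase of the lysosomal surface, rose from 29.2 and 29.3 CPM to 51.2 and 51.9 CPM (0.82 ± 0.06, SE, FDR = 1.07e-17). C7orf60, which encodes the methionine sensor SAMTOR, fell by 0.52 ± 0.09 (SE) and SEC13, a subunit shared by GATOR and the nuclear pore, fell by 0.45 ± 0.04 (SE). MTOR itself was at 147 and 148 CPM in the controls and 113 and 109 CPM with the PELP1 shRNA (−0.41 ± 0.04, SE, FDR = 1.82e-12).

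Enzymes that use the carried amino acids formed a pair of lists. Of 18 genes of glutamine, glutamate and glutathione metabolism, 6 rose, 6 fell and 6 did not pass (median 0.03). Both shares (33.3%) lay near those of all genes tested (28.6% and 29.5%), and with library size alone 9 rose and 5 fell. GSR, the glutathione reductase, fell by 0.32 ± 0.05 (SE), GLUD1, the glutamate dehydrogenase, fell by 0.26 ± 0.06 (SE) and the aspartate aminotransferase gene GOT1 rose by 0.34 ± 0.05 (SE). Of 16 genes of branched-chain amino acid catabolism, 8 rose (50%, against 28.6% of all genes tested), 2 fell (12.5%, against 29.5%) and 6 did not pass (median 0.21), with 12 higher and 1 lower with library size alone and 1 lower without control replicate 2. The mitochondrial and cytosolic transaminases moved apart. BCAT2 rose from 36.2 and 39.6 CPM to 56.1 and 53.6 CPM (0.53 ± 0.06, SE), and BCAT1 fell from 219 and 212 CPM to 154 and 151 CPM (−0.50 ± 0.04, SE). ACADSB and MCCC1, which act further down the pathway, rose by 0.65 ± 0.10 (SE) and 0.59 ± 0.06 (SE).

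Amino acid carriers of other families had 9 higher genes (52.9%, against 28.6% of all genes tested) and 5 lower genes (29.4%, against 29.5%) among 17 tested (median 0.15). CTNS, which releases cystine from lysosomes, rose from 36.2 and 35.02 CPM to 48.6 CPM in both PELP1 shRNA libraries (0.45 ± 0.06, SE). The mitochondrial carriers SLC25A22, for glutamate, and SLC25A29, for basic amino acids, fell by 0.40 ± 0.06 (SE) and 0.37 ± 0.07 (SE). For cystine, the plasma membrane carrier (SLC7A11) and the lysosomal one (CTNS) thus changed in opposite directions.

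**Figure D4:**
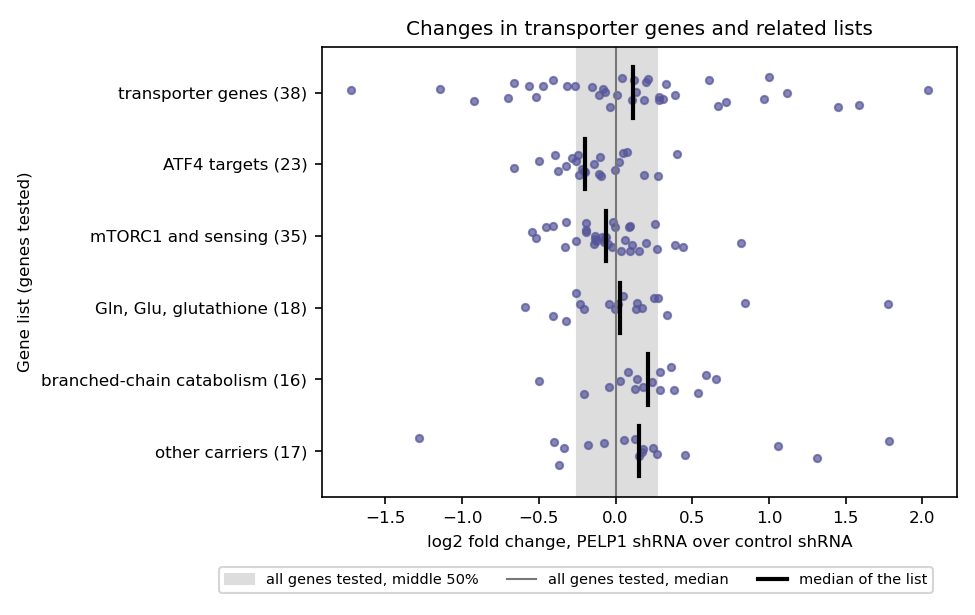
Log2 fold change (PELP1 shRNA over control shRNA) of each tested gene in the transporter set and 5 lists of related genes, with the number tested, the median of each list (black bar), and the interquartile range of all genes tested (grey band). The ATF4 list has its median at −0.20 and the branched-chain list at 0.21, with single genes of each on both sides of 0.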

How the data were processed

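The deposited files hold raw read counts per gene symbol. According to the submitters' processing notes, hg19 was the genome, TopHat2 (2.0.8b) the aligner and HTSeq the counter, and per the labels' protocols the reads were single-end, of 50 bp, from total RNA. For HTSeq, neither version, strand setting nor annotation is given in the sources used here. Rows that name no gene stayed out of library sizes (29.4% to 30.8% of the file total for alignments that were not unique, 8.83% to 9.08% for reads in no gene, 0.579% to 0.602% ambiguous), so genes with near-identical copies have partial counts.

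edgeR 4.0.16 in R 4.3.3 was run on all 4 libraries (TMM scaling, factors 0.967 to 1.033, filterByExpr, robust quasi-likelihood test, group as the sole term), with Benjamini-Hochberg adjustment over the 14972 genes tested. glmTreat tested changes against 1.5-fold. The estimated biological variation was 2.99%. Replicate pairs differed by more than counting noise (chi-square per degree of freedom 2.47 and 2.37), so each library counted as 1 sample. The script was tested on simulated data. Alternatives were scaling by RLE, upper quartile or library size alone, DESeq2 1.42.0, other low-count filters, a replicate block, assumed variations of 10% and 20%, and leaving out each library.

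Members and lists were chosen with earlier results of these data known. Named were PELP1, called members averaging 5 CPM or more, 7 members in any case (SLC3A2, SLC7A5, SLC7A11, SLC1A5, SLC7A1, SLC38A2 and SLC38A9) and, from each related list, up to 4 genes with the largest called change at 5 CPM or more. Some genes that this rule names are not reported here. Other genes named, such as low members, ATF4, CHAC1, DDIT3, TRIB3, SESN2 and MTOR, were chosen after their values were seen. Positions and exon lengths came from GENCODE v44 lifted to GRCh37 (hg19), which held all 59 members.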

Additional observations from a re-analysis of the deposited data

How the results depend on the processing

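Of the 26 called members, 14 were called under all settings that tested them, except at most an assumed variation of 20%. Of these, 5 (SLC38A4, SLC6A11, SLC6A17, SLC7A11 and SLC1A6) were called under that one as well. SLC38A4, SLC6A11, SLC6A9 and SLC1A6, all among the 14, did not pass the filter of 5 CPM in 2 libraries, so that setting did not test them. SLC1A6 met the main count filter only through the PELP1 shRNA libraries, so its call says nothing of stability. Higher members numbered 15, against 7 with DESeq2, 8 with an assumed variation of 10%, 3 with 20% and 9 to 11 without 1 library. Lower members numbered 11, against 2 with 20% and 10 to 11 without 1 library, and members past 1.5-fold numbered 4, against 2 with a filter of 5 CPM in 2 libraries and 3 to 5 without 1 library. Over 13724 genes, deviations of replicate 1 from replicate 2 were almost uncorrelated between the groups (r = −0.0677). That does not exclude pairing in single genes or small sets of genes. GFAP was higher in replicate 1 of both groups (37.2 against 11.8 CPM in the controls, 27.8 against 10.4 CPM with the PELP1 shRNA). At lower levels, the glial markers S100B and AQP4 were too, and so was the member SLC1A2. For SLC1A2 the values were 1.11 against 0.58 CPM in the controls and 1.36 against 0.73 CPM with the PELP1 shRNA. The glial marker ALDH1L1 was higher in replicate 2 of both groups. A cause of these differences was not tested. A replicate block gave 13 higher and 10 lower members. With it the calls of SLC1A1 (adjusted p = 0.0674), SLC38A10 (0.0572) and SLC38A2 (0.119) were lost.

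With a variation of 10%, higher and lower genes numbered 1 and 4 in the ATF4 list, 2 and 4 in the mTORC1 list, 2 and 2 in the glutamine list, 3 and 1 in the branched-chain list and 4 and 2 among other carriers. With 20% they numbered 0 and 0, 0 and 0, 1 and 0, 0 and 0, and 2 and 1 in the same order. DESeq2 gave 1 higher gene in the ATF4 list and 3 higher and 6 lower in the mTORC1 list. Library size alone gave 9 higher and 6 lower in the mTORC1 list and 1 lower in the branched-chain list. Without 1 library, the ATF4 list had 1 to 3 higher genes, the mTORC1 list 3 to 6 higher and 6 to 10 lower, and the branched-chain list 1 to 2 lower.

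Signs turned for SLC38A2 with library size alone (0.0093), for SLC38A9 with library size alone (0.0541) and upper-quartile factors (0.0171), and for SLC6A8 with library size alone (0.0204). Without 1 library the log2 fold change ranged from −0.20 to 0.85 for SLC1A2, from −0.12 to 0.14 for SLC38A6, from −0.73 to 0.29 for SLC6A16 and from −0.60 to 0.12 for SLC7A7, none of them called. For the calls that ended without 1 library, the cause was not tested. Where 1 library was left out, the lone library of its group was assumed to vary like the other group. Duplicates whose separate origin is not stated may understate the variation between cultures, which the assumed 10% and 20% stand in for. Depth limits the 21 members not tested, each with at most 34 counts in all.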
